A study of Rattus norvegicus with 98 samples.

Results

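H3K27ac elements crowd into some megabases of the rat genome, and the 16370 elements in the most crowded bins are described here, out of 128042 elements on chr1 to chr20 (12.8%). An element was a stretch covered by ChIP-seq peaks of at least 2 libraries, joined where stretches touched. Element midpoints were counted in fixed bins of 1 Mb, and the bins in the top 5% by count were kept. The members were thus chosen by the measured number of elements per bin, so their number, width, breadth and place are given as a description without a test. Tests were made only on libraries that had not chosen the bins, or on FT against Sham. The FT against Sham tests of single elements and single bins used the same libraries that chose the bins.

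The libraries came from micropunched brain regions of Charles River rats that were 2 months old when treatment began, which the methods describe as male Long-Evans. The FT animals received fluoxetine at 18 mg/kg in the drinking water for 6 weeks, and the Sham animals received water. The labels name no transgene or mutation in either group. Punches of several animals were pooled into each library. Peak lists of 92 libraries from 24 regions were used, 46 FT and 46 Sham, with 2 libraries per treatment in 21 regions and fewer in arc, MPOA and PVN. The same pools of animals supplied all regions. With 2 pools per treatment no exact test over pools can reach 0.05, so the tests were made over regions and bear on these pools. The lists hold 18723 to 53233 peaks per library on these chromosomes and no reads, so depth is unknown and a longer list cannot be told apart from deeper sequencing or better enrichment. In bulk tissue, fewer cells with an acetylated site and less acetylation per cell also cannot be told apart.

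H3K27ac is the acetylated lysine 27 of histone H3. The mark is written mainly by the acetyltransferases CBP and p300, is removed by histone deacetylases, and lies at active promoters and enhancers. Sites active in nearly all tissues are mostly promoters of widely used genes, whereas sites active in few tissues are more often distal enhancers. Genes lie unevenly along mammalian chromosomes, in gene-rich stretches and in long gene-poor ones. An annotation and sequence of the Rn5 build were not used here, so bins and elements are given by position, without gene names or bases.

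Of 2757 bins, 140 (5.08%) held at least 105 elements and were called dense, and 133 bins held none. The median was 115 elements in dense bins and 39 in the other bins. Counts ran on without a break at the limit: 7 bins stood at 105 elements, the last of them chr19:11000001-12000000, and 8 bins just outside stood at 104, the first of them chr1:88000001-89000000. These neighbours across the limit were much alike, with a mean breadth per element of 14.2 and 14.8 regions and 229.4 and 224.1 kb covered.

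**Figure D1:**
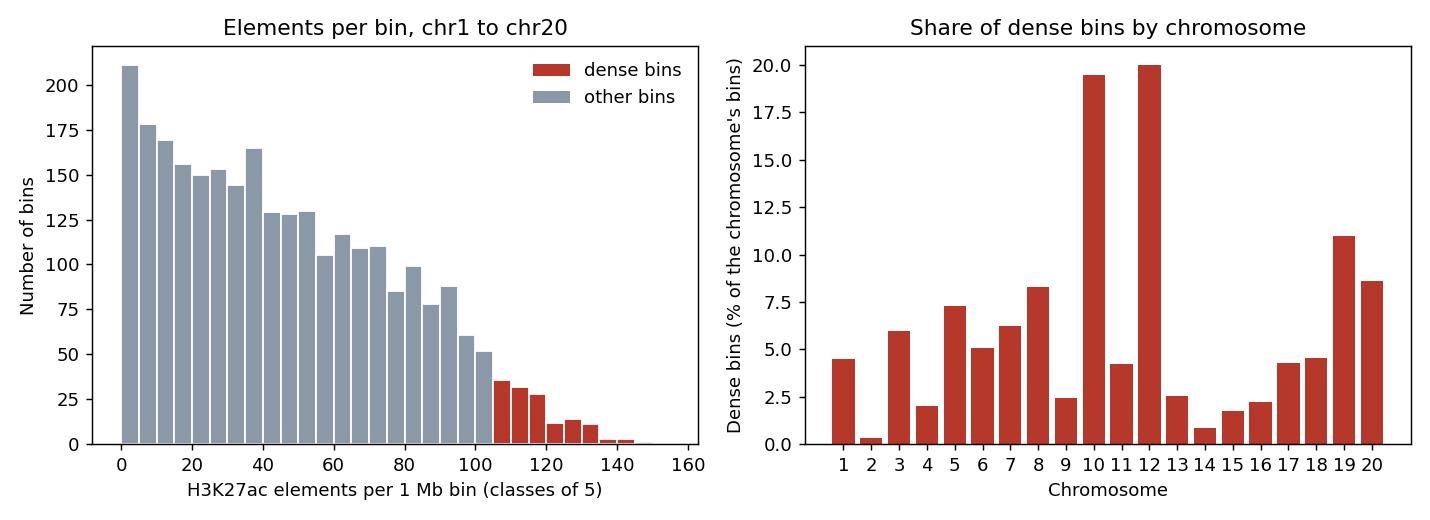
Left, number of 1 Mb bins (y axis) by the number of elements in the bin (x axis, classes of 5), dense bins in red. Right, dense bins as a percent of each chromosome's bins. Counts fall off smoothly through the limit of 105 elements, and chr10 and chr12 stand highest with 22 of 113 and 11 of 55 bins dense.

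Dense bins were spread unevenly over chromosomes. On chr10, 22 of 113 bins were dense and held 31.4% of that chromosome's elements. On chr12, 11 of 55 bins were dense and held 33.4%. The next was chr19, with 8 of 73 bins. At the other end, chr2 had 1 dense bin of 286 (0.350%) and chr14 had 1 of 116 (0.862%). Every one of the 20 chromosomes had at least 1 dense bin, and chr10 and chr12 also had the highest medians over all their bins, 72 and 76 elements.

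Dense bins often adjoined. They formed 101 runs, of which 76 were single bins, and 64 of the 140 dense bins (45.7%) lay in runs of 2 or more. The longest run was chr10:104000001-110000000, with 6 bins and 708 members. On chr12 a run of 5 bins, chr12:38000001-43000000, held 625 members, and one of 4 bins, chr12:48000001-52000000, held 445. Crowding did not stop at the edge of a dense bin. The other bins next to a dense bin had a median of 74 elements, against 38 in other bins next to a bin that was not dense. A bin with a neighbour of each kind counted in both medians.

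The fullest bin was chr15:51000001-52000000 with 149 elements, whereas the chromosome as a whole had a median of 36. Its libraries had 31 to 78 peaks there in FT (median 62.5) and 16 to 80 in Sham (median 47). The bin with the next highest count, chr7:11000001-12000000, had 143 elements and more peaks per library, 49 to 95 in FT (median 87) and 34 to 94 in Sham (median 77.5). The ranges of FT and Sham overlapped in both bins. The 2 bins differed in how widely their elements were shared. Of the 149 elements on chr15, 24 were found in all 24 regions, against 57 of the 143 on chr7.

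The other bins among the 10 fullest were chr8:129000001-130000000 with 142 elements, chr16:20000001-21000000 with 141, chr7:123000001-124000000 with 138, chr8:48000001-49000000 with 136, chr20:9000001-10000000 with 135, and 3 with 134 or 133. Those 3 were chr10:61000001-62000000, chr10:85000001-86000000 and chr3:16000001-17000000. Over the 10 bins, elements covered from 263.9 to 322.6 kb of the megabase.

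Across all dense bins, elements covered 23.5% of the sequence, against 7.45% in the other bins. Number and size both differed, number by more. A dense bin held a mean of 116.9 elements and another bin 42.7, whereas the median element was 1991 bp wide among the members and 1700 bp among the others. The middle 50% of members ran from 1304 to 2537 bp, and that of the others from 1100 to 2282 bp. Elements over 5 kb made up 188 of the members (1.15%) and 518 of the others (0.464%). Neighbouring elements lay closer together, with a median gap of 2700 bp against 4392 bp.

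The widest member, chr10:85143823-85153316, spanned 9494 bp and carried a peak in all 92 libraries. The next, chr6:133634874-133643473, spanned 8600 bp and was likewise found in all 92 libraries. The third, chr9:9605928-9614210, spanned 8283 bp and was found in 20 regions, in 37 FT and 30 Sham libraries. The widest element of all, 9502 bp, lay in an other bin. Great width was therefore not limited to dense bins.

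Members were shared by more brain regions. The median member was found in 12 of 24 regions and the median element of the other bins in 6. All 24 regions carried 4128 members (25.2%) and 18231 of the others (16.3%). A single region carried 962 members (5.88%) and 10301 of the others (9.22%). Every class of breadth was nevertheless more frequent per megabase in dense bins. Elements of 1 region numbered 6.87 per dense bin and 3.94 per other bin, a ratio of 1.75. The ratio was 2.02 for elements of 2 to 5 regions, 2.60 for 6 to 11, 3.22 for 12 to 17, 3.63 for 18 to 23 and 4.23 for all 24. The excess per bin thus grew with each step in breadth.

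Width followed breadth in both sets, which the definition of an element favours. Each further library can extend the stretch that at least 2 libraries cover, and a wider stretch meets more peaks. The part of this in the relation was not tested. Elements of all 24 regions had a median width of 2631 bp among the members and 2522 bp among the others, and elements of 1 region had 900 and 981 bp. Within a class of breadth the 2 sets differed little, and for elements of 1 region and of 2 to 5 regions the members were the narrower (1118 against 1134 bp in the latter). The larger median width of the members as a whole went along with their larger share of broad elements.

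**Figure D2:**
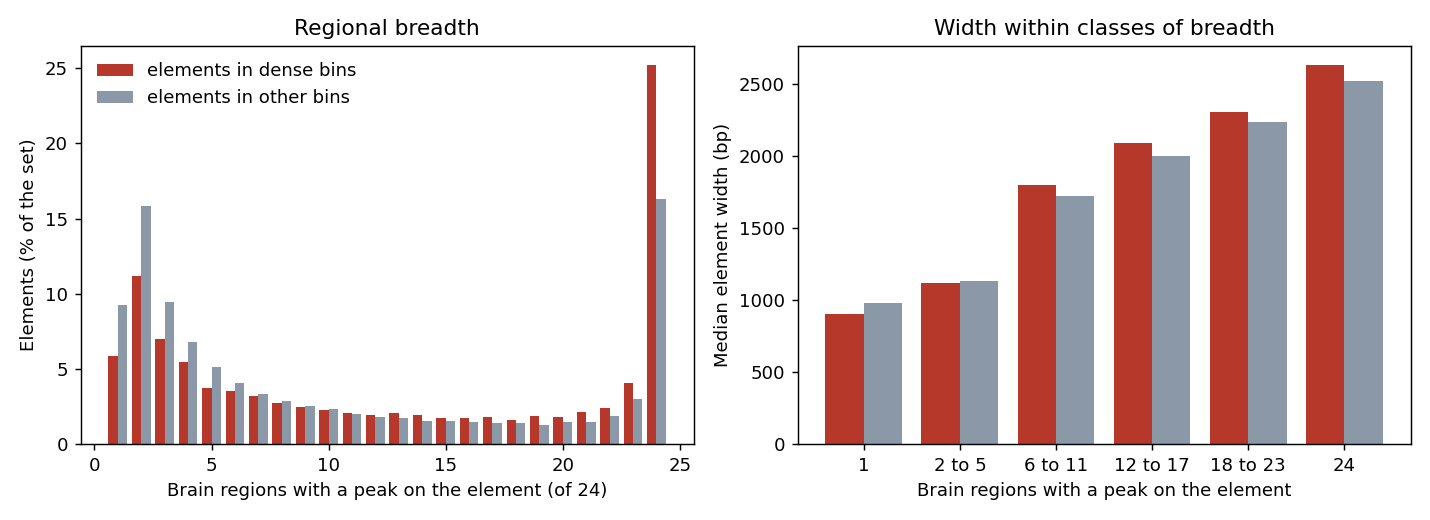
Left, percent of elements (y axis) by the number of brain regions with a peak on the element (x axis), for 16370 members in red and 111672 other elements in grey. Right, median element width in bp within classes of breadth. The sets differ most at the ends of the breadth scale, 25.2% against 16.3% at 24 regions, while widths within a class are nearly alike.

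Breadth also varied among the dense bins. The mean number of regions per element ran from 6.61 to 16.4 over the 140 bins, and in 136 of them it exceeded the median of the other bins that held elements (9.15). The broadest bins were chr3:14000001-15000000 with a mean of 16.4 regions, chr7:12000001-13000000 with 16.3 and chr10:90000001-91000000 with 16.0. In the last 2 of these, 61 of 126 and 40 of 106 elements were found in all 24 regions. Scaled to 10000 peaks of a list, the peak number in chr3:14000001-15000000 ran from 13.5 in arc to 16.9 in PAG (periaqueductal grey). In chr7:12000001-13000000 it ran from 16.1 in InsularCortex to 22.6 in PAG, and in chr10:90000001-91000000 from 12.1 in arc to 14.3 in PAG.

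In the 3 bins with the lowest mean breadth, peak numbers differed more between regions, most of all in those on chr8 and chr4. The bins were picked for low breadth in these same libraries. Uneven peak numbers between regions thus go with the choice and are given as a description. In chr8:30000001-31000000 (110 elements, mean breadth 6.61) PAG had 55 peaks per library on average, from 38 to 65 in its 4 libraries. LC (locus coeruleus) had 41.8, from 35 to 48, and Raphe had 27.8, from 15 to 44. BNST (bed nucleus of the stria terminalis) had 11, from 5 to 14. The PAG and LC libraries did not overlap with those of BNST. Per 10000 peaks of a list, PAG had 14.7, the median region 4.03 and BNST 2.81.

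In chr4:4000001-5000000 (114 elements, mean breadth 8.38) PAG again led with 58.8 peaks per library, from 39 to 69. ILC (infralimbic cortex) had 8.50, from 0 to 14, and PLC (prelimbic cortex) 10.8, from 5 to 18. No PAG library overlapped with those of either cortex. In chr6:114000001-115000000 (110 elements, mean breadth 7.20) dorDG (dorsal dentate gyrus) led with 35.5 peaks, from 28 to 43, and MDT (dorsomedial thalamus) was lowest per 10000 peaks with 15, from 11 to 17. The spread over regions was smaller there, 7.64 to 3.30 per 10000 peaks.

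Over all dense bins, PAG had the highest peak number per 10000 in 47 of 140. Lists differed in length between regions, and the share of peaks in dense bins fell with score rank, as given below. The part of list length in the order of regions was not tested. NaCshell (shell of the nucleus accumbens) and arc (arcuate nucleus) followed with 11 each. The total differed less. Dense bins held 17.7% of PAG peaks, with 17.7% to 17.8% in its 4 libraries, and 17.2% of LC peaks, with 16.7% to 17.7%. At the low end they held 15.6% of PLC peaks, from 14.9% to 16.7%, and 15.9% of ILC peaks, from 15.0% upwards. All 4 PAG libraries lay above all PLC libraries. A single region carried from 49.4% of the members, in NaCshell, to 57.9%, in Raphe. PAG was near the low end here, also with 49.4%.

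How far the choice of bins rests on particular libraries was examined by choosing them again. Libraries of replicate 1 alone gave 145 dense bins and those of replicate 2 gave 144, with 131 in common (90.3% and 91.0% of each set). FT libraries alone gave 142 and Sham libraries 147, with 127 in common (89.4% and 86.4%). The list length mattered more. When each library was cut to its 19378 best-scoring peaks, 105 of the 140 dense bins were again chosen, with 142 dense bins and 8899 members in all.

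Whether the bins differed in libraries that had no part in choosing them was tested next. Dense bins chosen on replicate 1 were measured in replicate 2 and the reverse, and each of the 21 regions with 4 libraries gave 1 value. Peaks in dense bins had a median width of 1652 ± 82.9 bp, against 1546 ± 90.6 bp in the other bins (mean and SD over 21 regions). The log2 ratio was 0.10 ± 0.02 (SD) and was above 0 in 21 of 21 regions, from 0.07 in LH (lateral hypothalamus) to 0.15 in NaCshell. Median widths of single libraries lay on a grid of 100 bp, and in most libraries dense and other bins differed by a single step. The SD over regions is therefore narrow, and the ends of the range rest on few libraries. The second FT library of LH had 1700 bp in both sets, and the first of NaCshell had 1500 against 1300 bp. A permutation test that flipped the signs of regions (two-sided) gave p = 1e-05, the smallest that 100000 resamples can give. On the equal-size lists the log2 ratio was 0.02 and above 0 in 12 of 21 regions (permutation test, p = 0.00054).

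Held-out peaks in dense bins were also more widely shared. On average 84.2% ± 4.15 of them (SD, n = 21 regions) overlapped a peak in at least 50% of the other regions, against 76.4% ± 5.16 in the other bins. The difference was 7.85 ± 2.45 percentage points, above 0 in 21 of 21 regions (sign-flip permutation test, two-sided, p = 1e-05). It ran from 5.32 points in LC to 14.4 points in PLC, with 12.6 in ILC and 10.7 in InsularCortex. In PLC the second Sham library, whose list was short, had 21.4 points, against 10.2 to 13.5 in the other libraries. In ILC the second Sham library, also with a short list, had 20.5 points, against 6.58 to 11.7. CGC (cingulate cortex) had 8.65 points, below dorDG with 9.53 and CMA with 9.10. An overlap of 1 bp was enough, and elements covered 23.5% of dense bins against 7.45% of the other bins. Overlap by position alone was thus likelier in dense bins, also in held-out libraries, and its part in the difference was not tested.

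Peaks in dense bins stood higher in their lists. Of the held-out peaks in dense bins, 56.2% ± 0.883 were in the better-scoring 50% of their list, against 48.7% ± 0.169 in the other bins (SD, n = 21 regions). The difference of 7.49 ± 1.05 points was above 0 in 21 of 21 regions, from 5.87 in Snt (nucleus of the solitary tract) to 9.54 in PLC (sign-flip permutation test, two-sided, p = 1e-05). Adjusted over the 4 held-out tests by the Benjamini-Hochberg method, the p of width, breadth and score was 1.33e-05 each.

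**Figure D3:**
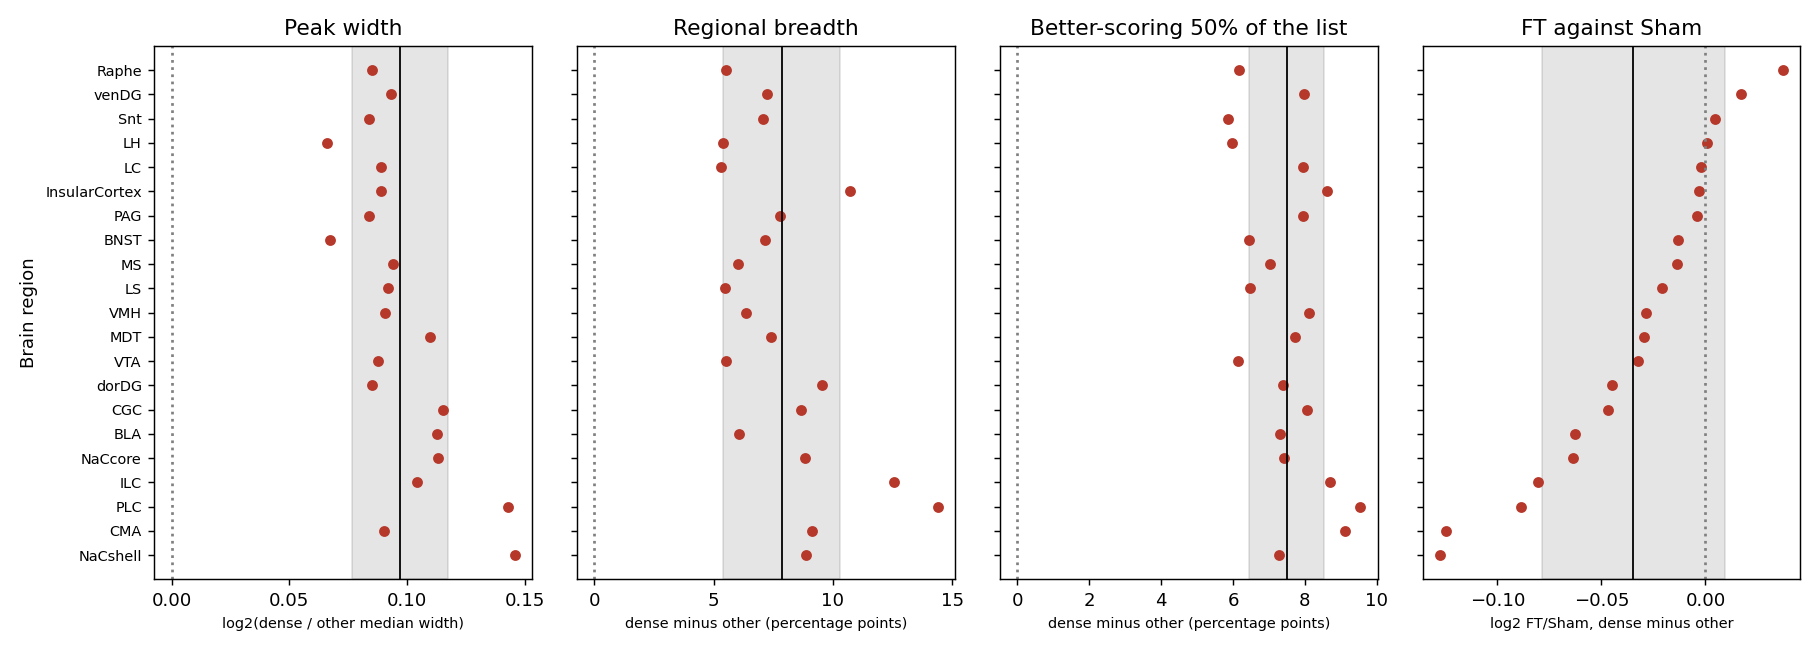
Held-out difference between dense and other bins in each of 21 regions (points), for peak width (log2 ratio), regional breadth and better-scoring 50% (percentage points) and log2 FT/Sham peak number. The black line is the mean, the grey band 1 SD over regions and the dotted line 0. All 21 points lie above 0 in the first 3 panels, and 4 of 21 do in the last.

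The treatment comparison of the design was FT against Sham, made here on the number of listed peaks and not on the level of acetylation. FT libraries had 3954 to 8506 peaks in dense bins (median 7705) and Sham libraries 2813 to 8145 (median 6474). The groups overlapped, with Sham spread more widely. The mean was 7579 ± 731 in FT and 6092 ± 1448 in Sham (SD, n = 46 libraries each). The FT mean exceeded the Sham mean in 21 of 24 regions. InsularCortex, arc and venDG were the exceptions, with log2 ratios of -0.01, -0.06 and -0.08. PLC had the largest ratio, 1.02, with 7765 and 8066 peaks in FT and 2817 and 4976 in Sham. Peaks were found on 45.6% ± 4.38 of the members in FT libraries and 36.6% ± 8.76 in Sham, and on 34.3% ± 3.90 and 26.9% ± 6.71 of the other elements (SD, n = 46 libraries each). In full lists the mean over regions of FT minus Sham peak number was above 0 in all 140 dense bins, as in 1842 of all 1869 bins with at least 5 peaks per library.

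**Figure D4:**
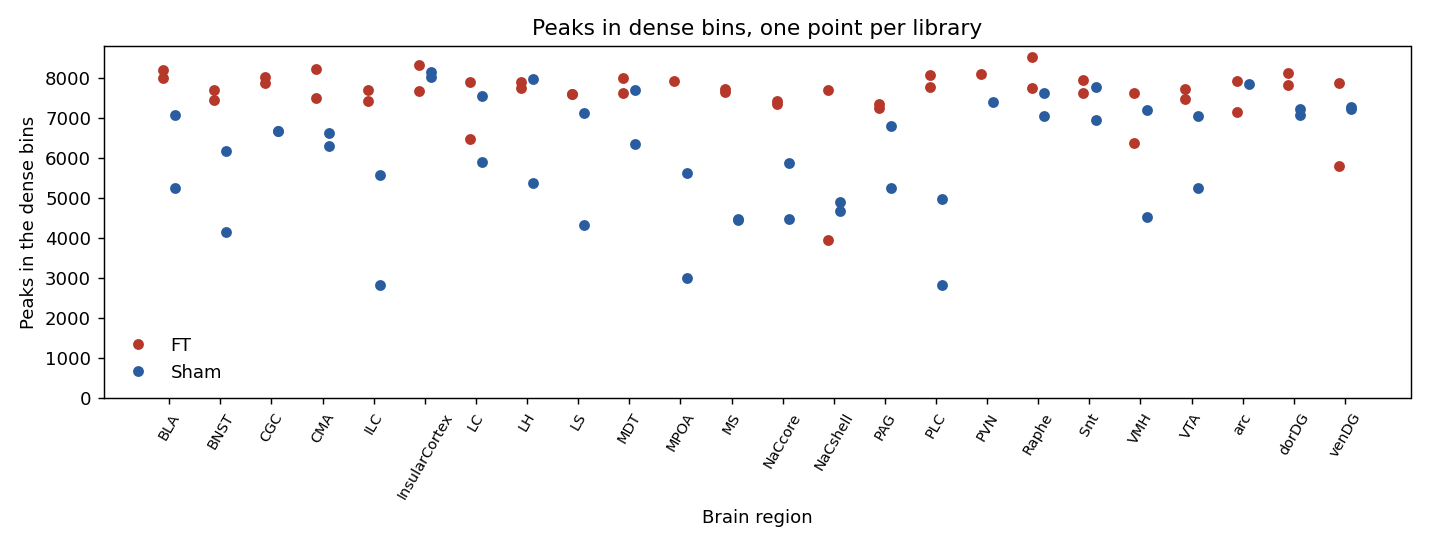
Number of peaks in the dense bins (y axis) of each library, by brain region, FT in red and Sham in blue; each point is 1 library. FT libraries lie between 3954 and 8506 and Sham libraries between 2813 and 8145, and the 2 lowest points are the second Sham libraries of ILC and PLC.

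Since FT lists were longer in most regions, with InsularCortex, arc and venDG again the exceptions, the question was whether dense bins differed in this from the rest of the genome. In held-out libraries the log2 ratio of FT to Sham peak number was 0.32 ± 0.28 in dense bins and 0.36 ± 0.30 in other bins (SD, n = 21 regions). The difference was -0.035 ± 0.044, above 0 in 4 of 21 regions (sign-flip permutation test, two-sided, p = 0.00104, the same after adjustment over the 4 tests). The SD between the 2 held-out pairs of a region was 0.066. NaCshell had the lowest value, -0.13, and CMA followed with -0.12. The FT lists of NaCshell were unlike in length, with 23675 and 48317 peaks, against 28319 and 26933 in Sham. Raphe had the highest, 0.037, then venDG with 0.017. Without the Sham replicate 1 libraries the difference was -0.020 and did not pass the test (permutation test, p = 0.104).

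The direction of this small difference depended on how lists were shortened. A stricter threshold, −log10 p of at least 6, kept the direction and gave -0.072 (permutation test, p = 4e-05). Cutting lists to equal length turned it. With the 19378 best-scoring peaks of each library it was 0.041, above 0 in 17 of 21 regions (permutation test, p = 0.00197). With each region's lists cut to its shortest, it was 0.048 (permutation test, p = 0.00101). In the equal-size lists, the dense bins chosen on all libraries held 18.8% ± 0.481 of FT peaks and 18.3% ± 1.04 of Sham peaks, whereas in full lists they held 16.4% ± 0.529 and 16.6% ± 0.598 (SD, n = 46 libraries each). Without PLC and ILC, whose second Sham lists were the shortest, the difference was -0.029 in full lists and 0.026 in equal-size lists (permutation tests, p = 0.00433 and 0.00806).

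The share of peaks in dense bins fell with the score rank of the peaks, in held-out libraries of both treatments. Of the 10000 best-scoring peaks, 20.7% ± 0.519 lay in dense bins in FT and 20.2% ± 0.821 in Sham (SD, n = 46 libraries each). In ranks 20001 to 30000 the values were 16.5% ± 0.664 in 45 FT and 15.9% ± 1.20 in 43 Sham libraries (SD). In ranks 40001 to 50000 they were 13.8% ± 0.685 in 39 FT libraries and 13.6% ± 0.311 in 9 Sham libraries (SD). At equal rank FT and Sham means lay within 1 SD of each other. The FT mean was the higher in every class except ranks 30001 to 40000, with 14.99% against 15.00% in Sham. These SDs span libraries of all regions and ignore the pairing of FT and Sham within a region. They therefore do not test the difference at equal rank. Only 9 of the 46 Sham lists were long enough to have the last class at 5000 peaks or more.

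**Figure D5:**
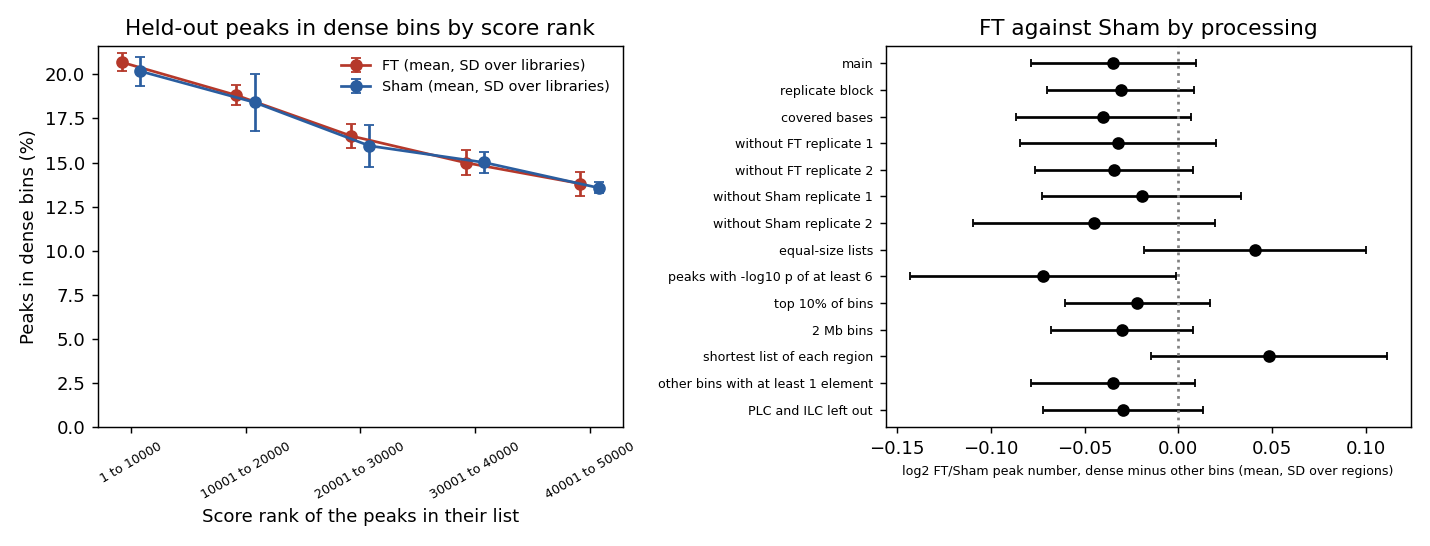
Left, percent of held-out peaks in dense bins (y axis) by score rank within a list (x axis), mean and SD over libraries, FT in red and Sham in blue. Right, log2 FT/Sham peak number in dense minus other bins under each processing (mean and SD over regions). The share falls from 20.7% to 13.8% in FT with rank, and 2 of the settings, both with shortened lists, lie above 0.

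Single members were compared between treatments on the equal-size lists. An element was tested when it was touched in at least 10 and untouched in at least 10 libraries, which 3639 of the 16370 members and 20329 elements in all were. The exact two-sided sign test over regions called 0 members after Benjamini-Hochberg adjustment over all 20329, where the background was 0% of elements towards FT and 0% towards Sham. With libraries paired by replicate number (replicate block), 2 members passed, both with FT the higher, where the background was 0.0787% towards FT and 0.0443% towards Sham. Before adjustment, 253 tested members had a p under 0.05 with FT the higher and 108 with Sham the higher, against 1104 and 690 of all tested elements. The median difference in the share of libraries touched was 0.021 both for tested members and for all tested elements.

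The member with the lowest p in the FT direction, chr10:55358311-55360636, was touched in 33 of 46 FT and 13 of 46 Sham libraries. FT was the higher in 15 regions and Sham in 0, with ties in the rest, for an exact sign test p of 6.1e-05 (adjusted 0.193). In full lists the same element had a peak in 45 FT and 36 Sham libraries, so it was common to both treatments. The next 4 were chr7:126466302-126468406 with 39 FT and 21 Sham libraries, chr10:64703915-64706515 with 44 and 27, chr5:176792663-176794920 with 41 and 25, and chr8:47310293-47312351 with 43 and 28. Few FT libraries left these 4 untouched, so they met the limit on untouched libraries only through the Sham libraries. All 5 members were found in all 24 regions.

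In the Sham direction, chr18:55662242-55667084 was touched in 13 FT and 27 Sham libraries, and Sham was the higher in 13 regions and FT in 0, for an exact sign test p of 0.000244 (adjusted 0.193). A neighbour in the same dense bin, chr18:55097803-55099773, followed with 12 FT and 27 Sham libraries. The others were chr10:85394046-85395702 with 3 and 18, chr5:155021169-155023264 with 13 and 25, and chr7:120197102-120199101 with 3 and 15. The elements with 3 FT libraries passed the limit of 10 touched libraries through the Sham libraries, and without Sham replicate 1 neither reached it. In full lists these 5 had peaks in 42 to 45 FT libraries and 34 to 41 Sham libraries. Each was thus present in most libraries of both treatments in the full lists.

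Whole bins were compared in the same way. All 140 dense bins were among the 1271 bins with at least 5 peaks per library on average. The exact sign test called 3 dense bins higher in FT and 0 higher in Sham after adjustment over all 1271 bins, where the background was 1.26% towards FT and 0.708% towards Sham. With FT and Sham libraries paired by replicate number (replicate block), the call went to FT in 18 dense bins and to Sham in 1, where the background was 5.35% and 2.2% of all 1271 bins. The unit there was the pair and not the region, so the test had more signs and its counts are not on a par with those over regions. Before adjustment, a p under 0.05 was reached by 32 and 2 dense bins in these directions, against 136 and 83 of all bins. The mean peak number was higher in FT in 103 dense bins and lower in 36, against 661 and 591 of all tested bins, and the median difference was 0.46 peaks in dense bins and 0.042 in all. The dense bins had been chosen on the full lists of these same libraries, in which FT lists were longer. FT libraries alone gave 131 of the 140 dense bins and Sham libraries alone 124. The tilt of dense bins towards FT is thus not independent of their choice and is given as a description.

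The 3 called bins were chr8:47000001-48000000, chr6:133000001-134000000 and chr16:20000001-21000000. In the bin on chr6, FT libraries had 19 to 38 peaks (median 28) and Sham libraries 18 to 36 (median 25), and FT was higher in 21 regions and lower in 3 (adjusted p of the exact sign test 0.0252). In the bin on chr16, FT libraries had 40 to 64 peaks (median 47) and Sham libraries 29 to 56 (median 43.5), with FT higher in 18 regions and lower in 2 (adjusted p of the exact sign test 0.032). In the bin on chr8, FT libraries had 35 to 46 peaks (median 42) and Sham libraries 31 to 46 (median 41), with FT higher in 19 regions and lower in 2 (adjusted p of the exact sign test 0.0252). The ranges of FT and Sham overlapped in all 3 bins, and the differences in mean were 2.75, 3.04 and 1.5 peaks. The calls depended on single pools. None of the 3 kept an adjusted p under 0.05 when the FT replicate 2 or the Sham replicate 2 libraries were left out. The bin on chr16 also lost it without FT replicate 1 (0.0731) and the bin on chr8 without Sham replicate 1 (0.0575). Without FT replicate 1 the exact sign test called 9 dense bins, all higher in FT, where the background was 2.12% towards FT and 1.02% towards Sham. Without Sham replicate 1 it called 10, all higher in FT, where the background was 2.59% and 0.629%. Without Sham replicate 2 it called 1 dense bin higher in FT and 1 higher in Sham, where the background was 0.238% in either direction. Without FT replicate 2 the exact sign test called 0 dense bins at all, where the background was 0.156% towards FT and 0% towards Sham. In that fit 18 dense bins had an unadjusted p under 0.05 with FT the higher, and 3 with Sham the higher, against 102 and 70 of all 1278 bins tested.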

How the data were processed

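H3K27ac ChIP-seq reads were aligned by the authors to Rn5 (the submitters' processing notes name BWA without a version), and peaks were called with DFilter on each library separately. Each deposited list gives peak positions, a −log10 p-value, 2 scores (the highest filter score and a normalised tag count) and a false discovery rate as a percent (0 for every peak). Scores served only to rank peaks within a list. Peak starts were taken as 0-based and are printed 1-based, on Rn5. Read depth is not given in the lists, so no counting interval was computed.

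Both HB libraries (habenula) were left out of the choice of elements, since the Sham HB list stood apart from all others; 92 libraries remained of 94, and the 4 inputs were not used. Chromosomes other than chr1 to chr20 were outside the rule. Bins ran from position 0 to the last element of a chromosome, empty ones included, and ties at the limit were kept. A region counted for breadth when any of its libraries had a peak on the element.

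Held-out values were averaged per region and tested by random sign-flips of regions (100000 resamples, two-sided). Peaks were assigned to bins by their centre. Elements and bins were tested on equal-size lists with an exact sign test over 24 regions, Benjamini-Hochberg adjustment and a threshold of 0.05. Under the replicate block of these tests each pair of libraries gave 1 sign. The 21 regions with 2 libraries per treatment thus entered 2 signs each, taken as independent. The scripts were tested on simulated data. The replicate number pairs an FT with a Sham library, since the methods state that the 2 were handled side by side. Over bins, the Sham difference between replicates had a mean correlation of -0.0035 with the FT difference (21 regions, lowest -0.12, highest 0.16). The text names the 10 fullest dense bins, 3 with the highest and 3 with the lowest mean breadth, those at the limit, the 3 widest members and 5 members per direction with the lowest p, and also the 3 called bins. Members, lists and tests were chosen with earlier results of these data known. The rank classes and the leaving out of PLC and ILC were chosen after seeing the data. Alternatives covered bin size and offset, list length, thresholds, overlap, the replicate block and each pool left out. Python 3.11.15, numpy 2.4.6, pandas 2.3.3 and scipy 1.17.1 were used.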

Additional observations from a re-analysis of the deposited data

Results flagged for a closer look

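The held-out difference in log2 FT/Sham between dense and other bins was above 0 in both pairs of replicates in 2 regions, Raphe and venDG, and below 0 in both pairs in 11 regions: BLA, CGC, CMA, LS, MDT, MS, NaCcore, NaCshell, VMH, VTA and dorDG. The opposite direction is what marked these regions, and the difference between them was not tested. In Raphe the pairs gave 0.026 and 0.050, and in NaCshell -0.060 and -0.16. The FT list of NaCshell was the shorter in the first pair and the longer in the second. On equal-size lists 8 of the 11 regions turned to values above 0, from 0.021 in NaCcore to 0.059 in MDT. The 3 that stayed below 0 were CMA (-0.015), NaCshell (-0.052) and dorDG (-0.026). Raphe (0.093) and venDG (0.027) stayed above 0.

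The single FT library of HB, which had no part in choosing the bins, had 8030 of 48485 peaks in dense bins (16.6%). The single Sham library of HB had 394 of 30052 (1.31%), with a median peak width of 500 bp against 1600 bp in FT, and no other library lay below 14.9%.

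On chrX, which the rule left out, the same construction gave 3347 elements in 155 bins with a median of 17. The fullest of these bins, chrX:115000001-116000000, held 111 elements, above the limit of 105, and no other chrX bin reached it.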

How the results depend on the processing

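The number of members moved with the share of bins kept and with list length: 7440 with the top 2% of bins, 31039 with the top 10% and 8899 with equal-size lists. Under the other 7 alternatives it stayed within 1.5 times the value given, although bins shifted by 0.5 Mb kept only 52.3% of the members. Width, breadth and score in held-out libraries kept their direction and passed the test under all alternatives run.

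The FT difference between dense and other bins reversed with equal-size lists (0.041) and with lists cut to the shortest of their region (0.048). A −log10 p of at least 6 gave -0.072 and the top 10% of bins -0.022, both passing the test. Pools left out gave -0.045 to -0.020, with the value without Sham replicate 1 no longer passing. With the replicate block it was -0.031, and the call held. With each region left out in turn it ran from -0.038 to -0.030, and from 0.034 to 0.046 on equal-size lists.

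Against 0 members called in the element test, the replicate block gave 2 (0.055% of tested members, against 0.123% of all tested elements), full lists 1358 (17.3% against 16.6%), the share of the element covered 541 (14.9% against 13.0%) and at least 50% covered 15 (0.407% against 0.299%). Pools left out gave 0 to 0. Against 3 dense bins called, the paired test with the replicate block gave 19 (13.6% of dense bins, against 7.55% of all tested bins), full lists 140 (100% against 93.3%), the 10000 best-scoring peaks 6 (4.65% against 3.41%) and covered bases 124 (88.6% against 65.2%). Under the replicate block 18 were higher in FT and 1 in Sham, and under the other 3 settings all were higher in FT. Pools left out gave 0 to 10 (0% to 7.14% of dense bins, against 0.156% to 3.22% of all tested bins). The causes of these changes were not tested. Lists hold no reads, so depth cannot be separated from treatment.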

Other observations

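FT and Sham libraries were also compared in how far dense bins stood out from other bins, a comparison chosen after seeing the data. The excess in peak width was 0.10 ± 0.03 on the log2 scale in FT and 0.10 ± 0.03 in Sham (SD, n = 21 regions; permutation test by sign-flip, p = 0.993). The excess in breadth was 7.92 ± 2.64 points in FT and 7.78 ± 2.68 in Sham (SD, n = 21 regions; permutation test, p = 0.77). The excess in the better-scoring 50% of the list was 7.75 ± 1.21 points in FT and 7.22 ± 1.15 in Sham (SD, n = 21 regions), higher in FT in 16 of 21 regions (permutation test, p = 0.0349, 0.105 after Benjamini-Hochberg adjustment over these 3 comparisons). None of the 3 passed the test after adjustment.

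Elements with peaks in one treatment alone were scarcer among the members. Of the members, 1047 (6.40%) had FT peaks and lacked any Sham peak, against 10337 (9.26%) of the other elements. The reverse held for 242 members (1.48%) and 5215 of the other elements (4.67%). Elements of only 2 libraries, which are the least the rule allows, made up 9.32% of the members and 13.6% of the others. These shares belong to the data that chose the bins and were not tested.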
